A study of Mus musculus with 40 samples.

Results

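The genes described here are 37 genes of antioxidant defence and of the glutathione and thioredoxin systems, named as a list of symbols and looked up in the deposited count table. All 37 were among its 26792 gene symbols. They comprise 3 superoxide dismutases, catalase with 4 glutathione peroxidases, 6 peroxiredoxins with sulfiredoxin, 4 thioredoxins and thioredoxin reductases, 5 genes of glutathione synthesis, recycling and cystine import, 8 glutathione transferases, the quinone reductase gene Nqo1 with 2 heme oxygenases, and the pair Nfe2l2 and Keap1.

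The libraries came from microdissected hypothalami of Aldh1l1 eGFP-L10a mice. The Aldh1l1 promoter, active in astrocytes, drives L10a, a ribosomal protein fused to eGFP, and translating ribosome affinity purification (TRAP) pulls down tagged ribosomes with their bound messages. Libraries were made of the pull-down (labelled IP) and of the supernatant (labelled SN), which holds the messages that the pull-down left behind from astrocytes and all other cells. The groups were GDX-HFD (orchiectomised, also labelled ORX, on a high-fat diet, 7 samples), Sham-HFD (sham operation, high-fat diet, 6 samples) and Sham-Chow (sham operation, chow, 7 samples), each in both fractions, so 40 libraries in all. The diets lasted 4 weeks, and every group carries the transgene. The labels used give no age and no strain, and they do not say whether 1 sample number is 1 mouse, so the p-values reflect only how far these samples spread, which may be technical. Orchiectomised mice on chow were not analysed here.

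Cells meet oxidants in steps. Superoxide dismutases turn superoxide into hydrogen peroxide, and catalase, glutathione peroxidases and peroxiredoxins remove the peroxide. Glutathione and thioredoxin carry the electrons, which come from NADPH through glutathione reductase and thioredoxin reductases, and the transcription factor NRF2, held down by KEAP1, drives many of these genes. Astrocytes are known for a strong NRF2 response and for supplying neurons with glutathione precursors.

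Pull-down libraries totalled 7714834 to 20792175 estimated counts, and supernatant libraries 8739276 to 12931869. The 14 astrocyte markers summed to 37288 to 59914 CPM (counts scaled to a common library total) in the pull-downs, against 1233 to 4824 CPM in the supernatants. The 14 neuron markers summed to 782 to 1468 CPM in the pull-downs, against 5575 to 8107 CPM in the supernatants. Median sums of some other cell markers were also higher in the pull-downs. They were 405 against 111 CPM for endothelial, 4927 against 1426 for fibroblast and meningeal, and 144 against 72.0 for mural markers. Oligodendrocyte precursor (512 against 294), tanycyte and ependymal (190 against 80.7) and choroid plexus markers (104 against 49.4) were higher too. Oligodendrocyte, microglia, red blood cell and pituitary markers were lower. The part of these cells in the members' values was not tested. Mitochondrially encoded genes took 0.643% to 1.63% of pull-down counts and 19.2% to 27.8% of supernatant counts. The transcript Gm42418, which overlaps ribosomal RNA, took 1.07% to 18.2% of pull-down counts and 0.127% to 3.67% of supernatant counts, and it exceeded 10% in 4 pull-downs.

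Between the fractions, 24 of the 37 genes were higher in the pull-down, 11 were lower, and Gss and Txnrd2 did not pass the test (edgeR quasi-likelihood test, Benjamini-Hochberg adjusted p under 0.05 over all 15629 genes tested). Of all genes tested, 43.1% were higher and 43.7% lower by the same rule. The median log2 fold change of the 37 genes was 0.91, against -0.01 over all genes. A difference of at least 2-fold was called higher in 16 members and lower in 3, beside 22.8% and 26% of all genes. In 22 members the 20 pull-downs did not overlap the 20 supernatants, 18 above and 4 below, beside 37.2% of all genes. In bulk tissue fractions, fewer cells of a type and less RNA per cell cannot be told apart. The pull-down also holds ribosome-bound messages and the supernatant those left behind. A difference in cell type and one in ribosome binding of a message therefore cannot be told apart either. The median member log2 fold change between the fractions was 0.85 within GDX-HFD, 0.95 within Sham-HFD and 0.76 within Sham-Chow.

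**Figure D1:**
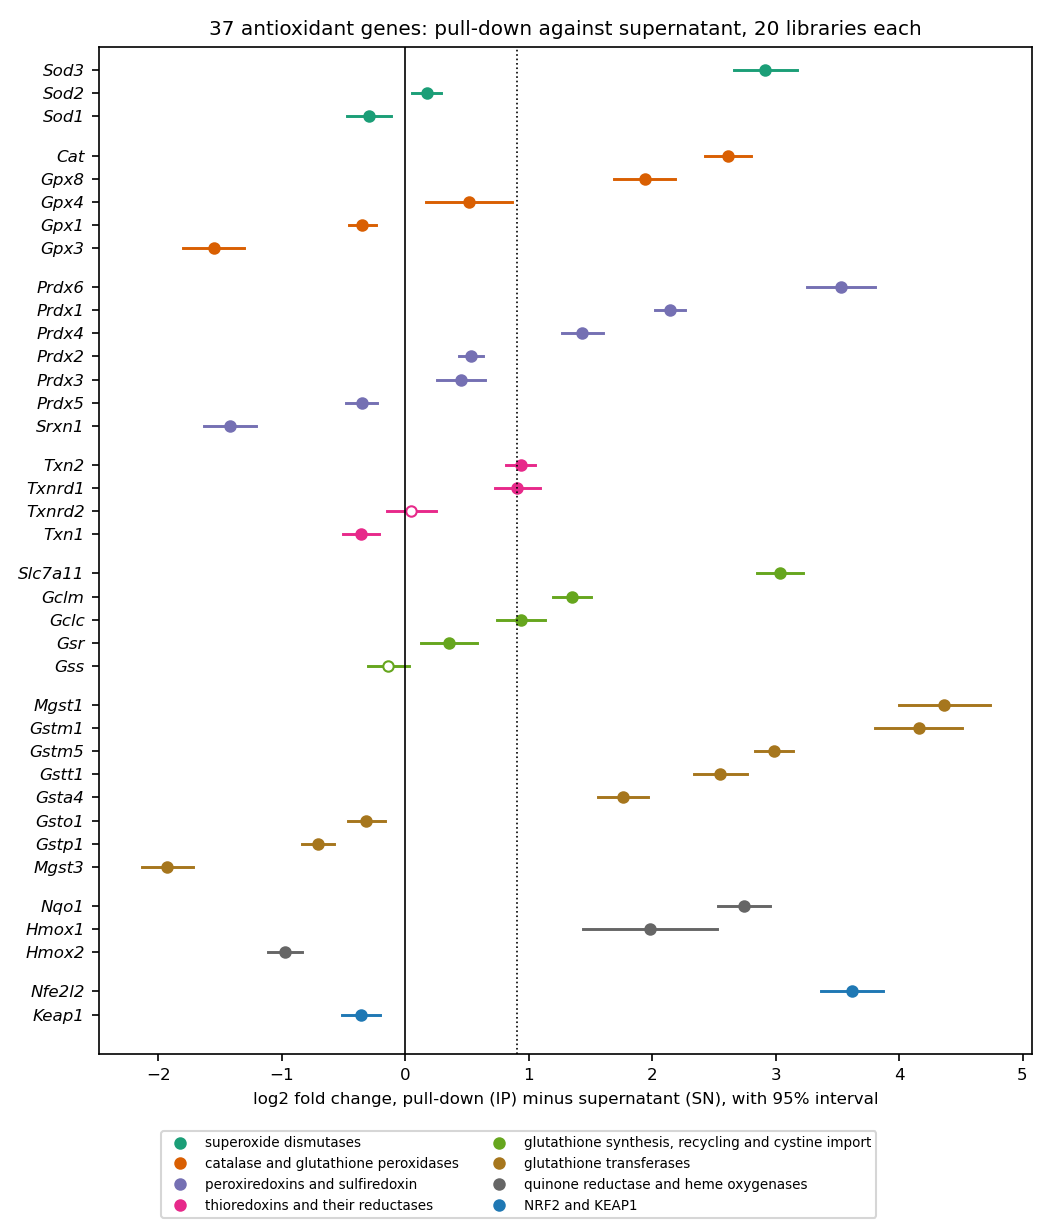
Log2 fold change between pull-down and supernatant (x axis) for each of the 37 genes (y axis), coloured by role, with its 95% interval; open circles did not pass the test, and the dotted line is the members' median of 0.91. Within 7 of the 8 roles some genes lie to the right of 0 and others to the left by the test, and the outermost points are Mgst1 at 4.37 and Mgst3 at -1.93.

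The regulator and its inhibitor lay on opposite sides. Nfe2l2 (chr2:75675513-75704641, minus strand), which encodes NRF2, ranged from 136.0 to 253.3 CPM in the 20 pull-downs with a median of 168.7, and from 4.98 to 22.97 CPM in the 20 supernatants with a median of 13.7. Every pull-down thus held more Nfe2l2 than every supernatant, and the log2 fold change was 3.62 ± 0.13 (SE; adjusted p = 4.87e-27). Keap1 (chr9:21229730-21239361, minus strand), whose product presents NRF2 for degradation, had 65.0 to 91.2 CPM in the pull-downs with a median of 78.7, and 50.4 to 124.5 CPM in the supernatants with a median of 107. These ranges overlapped, and Keap1 was lower in the pull-down by the test, with a log2 fold change of -0.36 ± 0.08 (adjusted p = 4.13e-05).

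Of the 5 genes of cystine import and glutathione synthesis and recycling, 4 were higher in the pull-down. Slc7a11 (chr3:49892526-50443614, minus strand) encodes the transport subunit of the cystine-glutamate exchanger, and it had 178.6 to 353.6 CPM in the pull-downs (median 230.9) and 17.4 to 39.4 CPM in the supernatants (median 32.3). The lowest pull-down was above the highest supernatant, with a log2 fold change of 3.03 ± 0.09 (adjusted p = 4.45e-29). Gclm and Gclc encode the modifier and the catalytic subunit of glutamate-cysteine ligase, the rate-limiting step of glutathione synthesis. Gclm had 98.04 to 142.3 CPM in the pull-downs and 29.0 to 68.9 CPM in the supernatants (log2 fold change 1.35 ± 0.08). Gclc had 59.0 to 93.3 CPM in the pull-downs and 17.0 to 49.7 CPM in the supernatants (0.94 ± 0.10). Both were separated without overlap. The next enzyme, glutathione synthetase, differed from them: Gss had 4.87 to 7.03 CPM in the pull-downs and 3.74 to 8.13 CPM in the supernatants. Its log2 fold change of -0.14 ± 0.08 did not pass (adjusted p = 0.112), though DESeq2 called it lower (-0.21, adjusted p = 0.0159). Gss was also called lower by edgeR with DESeq2's size factors and by limma on the second deposited table. Gsr, the NADPH-dependent reductase that regenerates glutathione, had a log2 fold change of 0.35 ± 0.11 (adjusted p = 0.00348) with overlapping ranges.

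Of the 4 thioredoxin and thioredoxin reductase genes, 2 were higher in the pull-down and 1 was lower. Txn2, the mitochondrial thioredoxin, had 88.0 to 126.1 CPM in the pull-downs and 39.7 to 65.4 CPM in the supernatants (log2 fold change 0.94 ± 0.06). Txn1, the cytosolic one, had 61.3 to 97.4 CPM in the pull-downs and 69.5 to 143.1 CPM in the supernatants, and was lower in the pull-down with -0.36 ± 0.07. Txnrd1, the cytosolic reductase, was higher with 0.91 ± 0.09, whereas mitochondrial Txnrd2 gave 0.05 ± 0.10 (adjusted p = 0.653) and took the opposite sign under 4 of the alternative settings.

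Among the peroxiredoxins, 5 of 6 were higher in the pull-down. Prdx6 (chr1:161240112-161251219, minus strand), which reduces phospholipid hydroperoxides, ranged from 620.05 to 1374 CPM in the pull-downs with a median of 1188, and from 54.6 to 183.3 CPM in the supernatants with a median of 88.2. The fractions did not overlap, and the log2 fold change was 3.53 ± 0.14 (adjusted p = 2.87e-25). The 4 pull-downs rich in Gm42418 held the 4 lowest Prdx6 values, 620.05 to 851 CPM against 1048 to 1374 CPM in the other 16 pull-downs; whether the 2 are linked was not tested. Prdx1, a cytosolic peroxiredoxin, had 671 to 882 CPM in the pull-downs and 113 to 224.5 CPM in the supernatants (2.14 ± 0.06). Prdx4, the form of the endoplasmic reticulum, gave 1.44 ± 0.08, cytosolic Prdx2 gave 0.53 ± 0.05 and mitochondrial Prdx3 gave 0.45 ± 0.10. The exceptions were Prdx5, a peroxiredoxin of several compartments, at -0.35 ± 0.06, and Srxn1. Srxn1, which repairs overoxidised peroxiredoxins and is a known NRF2 target, had 23.0 to 37.9 CPM in the pull-downs and 55.6 to 176.0 CPM in the supernatants. All pull-downs lay below all supernatants for Srxn1, with a log2 fold change of -1.42 ± 0.10 (adjusted p = 4.41e-16).

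Catalase and the glutathione peroxidases spread over both sides. Cat, the peroxisomal catalase gene, had 107.3 to 166.9 CPM in the pull-downs and 13.9 to 37.3 CPM in the supernatants (log2 fold change 2.62 ± 0.09). Gpx8, a peroxidase of the endoplasmic reticulum, gave 1.94 ± 0.12. Gpx3, which encodes the secreted plasma peroxidase, had 8.53 to 28.3 CPM in the pull-downs and 33.5 to 81.8 CPM in the supernatants, without overlap and with -1.55 ± 0.12. Gpx1, the cytosolic form, was lower in the pull-down with -0.35 ± 0.05. Gpx4, which reduces lipid hydroperoxides in membranes, gave 0.51 ± 0.17 (adjusted p = 0.00612) on overlapping ranges of 10.8 to 80.6 CPM in the pull-downs and 8.89 to 22.4 CPM in the supernatants. A GDX-HFD pull-down had 80.6 CPM of Gpx4 and the other 6 of its group 10.8 to 20.1 CPM, and limma on the second deposited table did not call it (adjusted p = 0.0831). Of the superoxide dismutases, 2 were higher and 1 lower: extracellular Sod3 had 14.1 to 37.8 CPM in the pull-downs and 1.68 to 4.54 CPM in the supernatants (2.92 ± 0.13), mitochondrial Sod2 gave 0.17 ± 0.06 and cytosolic Sod1 gave -0.29 ± 0.09. DESeq2 did not call Sod2 (0.11, adjusted p = 0.08997).

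The glutathione transferases held both ends of the range. Mgst1 (chr6:138140316-138156755, plus strand), a membrane-bound transferase with peroxidase activity, had 89.7 to 199.2 CPM in the pull-downs with a median of 120.3, and 1.63 to 11.6 CPM in the supernatants with a median of 5.58. Its log2 fold change of 4.37 ± 0.18 was the highest of the 37 genes. Gstm1 (chr3:108012255-108017973, minus strand), a cytosolic mu-class transferase, had 1166 to 2179.7 CPM in the pull-downs and 45.4 to 203.1 CPM in the supernatants (4.16 ± 0.17). Gstm5, of the same class and chromosome, gave 2.99 ± 0.08, theta-class Gstt1 gave 2.55 ± 0.11 and alpha-class Gsta4, which handles aldehydes of lipid peroxidation, gave 1.76 ± 0.10. These 5 were separated between the fractions without overlap. The other 3 were lower in the pull-down: omega-class Gsto1 with -0.32 ± 0.07, pi-class Gstp1 with -0.70 ± 0.06, and Mgst3 with -1.93 ± 0.10. Mgst3 (chr1:167371966-167393841, minus strand), a membrane-bound relative of Mgst1, had 4.04 to 10.6 CPM in the pull-downs and 15.4 to 41.8 CPM in the supernatants, again without overlap.

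Nqo1, an NADPH-using quinone reductase that is a standard NRF2 target, had 11.3 to 20.65 CPM in the pull-downs and 1.054 to 3.56 CPM in the supernatants (log2 fold change 2.74 ± 0.11). The inducible heme oxygenase gene Hmox1 was near the detection limit: its counts were 32 or fewer in every library, 1 supernatant held none, and it did not pass the filter on low counts among the supernatants. Its levels were 0.527 to 2.09 CPM in the pull-downs and 0 to 1.41 CPM in the supernatants, with a log2 fold change of 1.98 ± 0.27. The constitutive gene Hmox2 had 36.3 to 60.0 CPM in the pull-downs and 74.8 to 134.8 CPM in the supernatants, and every pull-down lay below every supernatant (-0.97 ± 0.07).

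**Figure D2:**
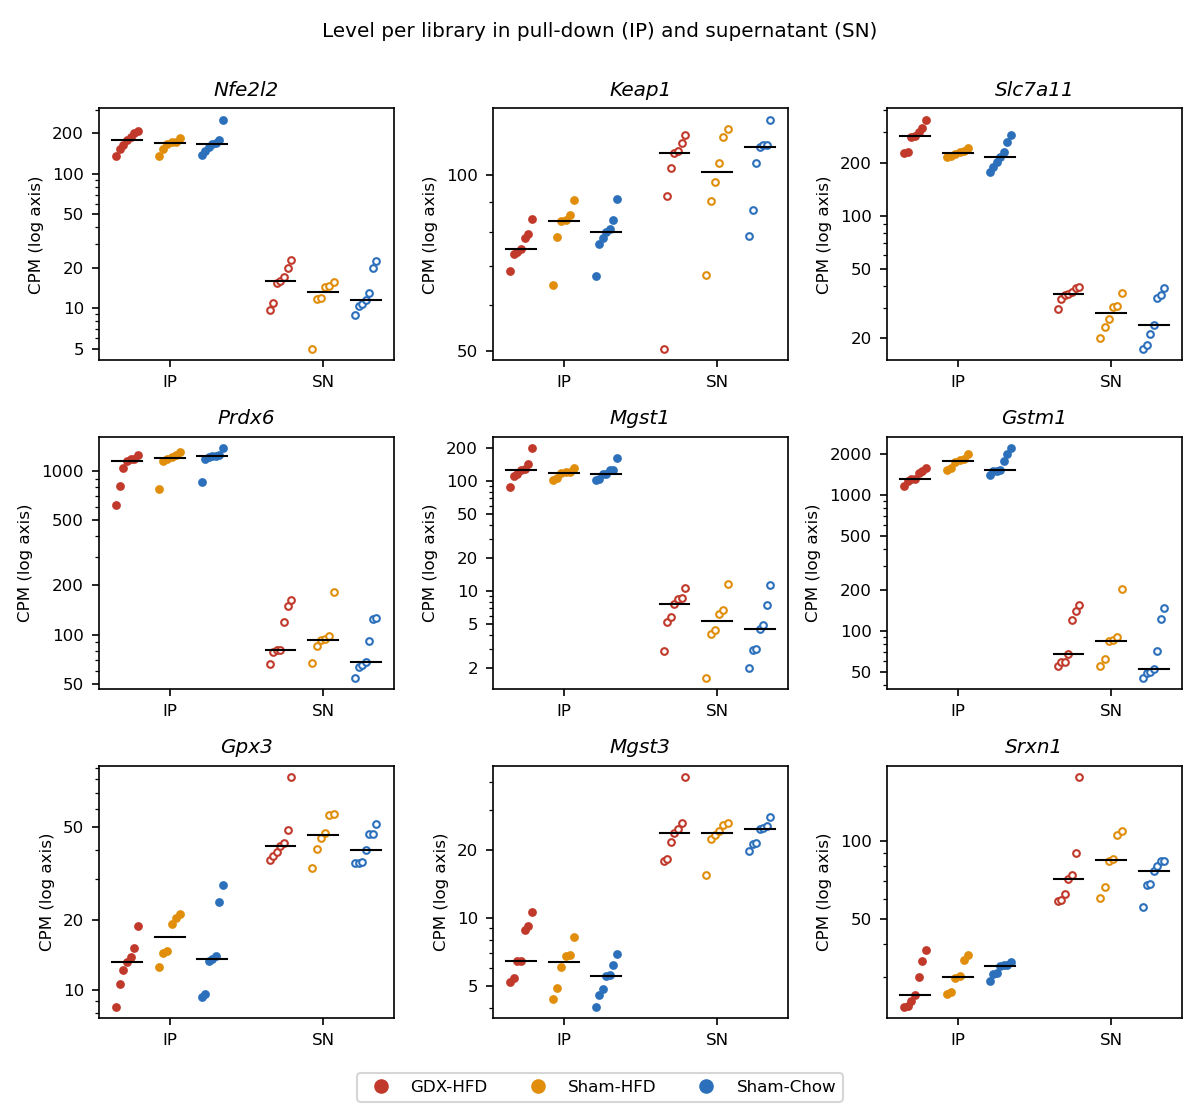
CPM (y axis, log scale) of 9 of the genes in every library, pull-down (IP, filled) left of supernatant (SN, open), coloured by treatment; each point is 1 library and each bar a group median. Nfe2l2, Slc7a11, Prdx6, Mgst1 and Gstm1 are higher in every pull-down, Gpx3, Mgst3 and Srxn1 are lower in every pull-down, and Keap1 overlaps between 65.0 to 91.2 CPM in IP and 50.4 to 124.5 CPM in SN.

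Reads near the 3' end cannot always be assigned to 1 gene. Of the 31-base words in the last 300 bases of the transcripts, 90.2% of those of Gpx4 also occur in another gene, the pseudogene Gpx4-ps2, and 82.1% of those of Gstp1 occur in Gstp2 or a pseudogene. The shares were 44.3% for Prdx1, 30.7% for Gstm1 (shared with Gstm3 and pseudogenes), 28.5% for Sod1, 17.5% for Prdx2 and 14.6% for Sod2. Values of these 7 genes are uncertain for that reason. A share of words is not the size of an error in a level, which was not measured. The second deposited table held about the same reads for most members, but 332 in sum against 3260 for Gpx8 and 0.903 times the count for Sod1, so the level of Gpx8 depends on the table.

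NRF2 acts through the antioxidant response element, whose core was searched as TGACNNNGC on both strands of the 250 bases before each RefSeq gene start (GRCm38.p6), of which a gene may have several. Of the 37 genes 31 had a promoter entry, and 7 of these (22.6%) held the core, beside 11.5% of all 27025 genes with an entry. The 7 matches follow because they belong to genes whose levels are given above; capitals mark the motif, or its reverse complement where it lies on the other strand, and each run is printed 5′ to 3′ on the strand of its gene. The runs of Mgst1 and Txnrd1 lie wholly inside the gene as GENCODE gives it, before a RefSeq start further in.
Nfe2l2, chr2:75704885-75704913, minus strand: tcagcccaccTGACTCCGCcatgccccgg
Gstm5, chr3:107895802-107895830, plus strand: caccgcccacTGACCACGCggagggcggg
Gclm, chr3:122245413-122245441, plus strand: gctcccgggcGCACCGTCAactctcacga
Prdx1, chr4:116685456-116685484, plus strand: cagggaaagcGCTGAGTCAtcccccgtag
Mgst1, chr6:138140461-138140489, plus strand: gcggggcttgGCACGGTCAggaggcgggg
Txnrd1, chr10:82859104-82859132, plus strand: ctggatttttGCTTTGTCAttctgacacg
Sod1, chr16:90220696-90220724, plus strand: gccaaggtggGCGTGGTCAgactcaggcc

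The run of Prdx1 holds the longer form TGACTCAGC, which overlaps the core and occurs in 0.426% of all genes with an entry. Of the 7 genes with the core, 6 were higher in the pull-down and Sod1 was lower. Of the 24 with an entry and no core in this window, 12 were higher and 10 lower, and their median log2 fold change was 0.11 against 2.14 for the 7. The 6 with no entry were all higher, with a median of 1.87. A match in these letters is a description of the sequence only, and no test was made of it.

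A further 151 genes of connected pathways were listed, 149 of them in the table and 135 tested between the fractions. Of these 135, 87 were higher in the pull-down and 37 lower, beside 43.1% and 43.7% of all genes. Their median log2 fold change was 0.70, against -0.01 over all genes. Of the genes that supply NADPH, 15 of 19 tested were higher and 2 lower. Me1, the cytosolic malic enzyme, gave 2.27 ± 0.06 and the NAD kinase gene Nadk gave 2.19 ± 0.06, while mitochondrial Me3 gave -2.67 ± 0.15 and Mthfd2, a mitochondrial folate enzyme, gave -2.36 ± 0.13. Of 20 tested genes of glutathione turnover and precursor supply, 13 were higher and 6 lower. Glul, the glutamine synthetase gene and itself an astrocyte marker, gave 3.30 ± 0.09 and Oplah, which opens oxoproline, gave 3.15 ± 0.10, while the exporter gene Abcc5 gave -1.36 ± 0.07.

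Of 12 tested glutathione transferases outside the 37 genes, 9 were higher and 3 lower, with Gstt3 at 4.11 ± 0.19 and Gstk1 at 3.40 ± 0.13 against Gstm7 at -1.07 ± 0.10 and Gstp2 at -3.88 ± 0.60. Gstp2 is the near copy of Gstp1 named above, and 11 libraries held none of it. Of 25 tested glutaredoxins, thioredoxin-fold proteins and methionine sulfoxide reductases, 17 were higher and 6 lower: Nxn (nucleoredoxin) gave 1.83 ± 0.10, the sestrin gene Sesn3 gave 1.72 ± 0.10, Msra gave -1.36 ± 0.08 and Glrx5, a mitochondrial glutaredoxin, gave -0.87 ± 0.09. Of 17 selenium-handling genes, 9 were higher and 5 lower, beside 43.1% and 43.7% of all genes. Selenop, the secreted selenium carrier, gave 3.25 ± 0.11 and Selenos gave 1.905 ± 0.10, while Selenom gave -1.47 ± 0.08 and Pstk, a kinase of selenocysteine synthesis, gave -0.96 ± 0.07.

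The other NRF2 targets, partners and regulators were also on both sides, 15 higher and 9 lower of 26 tested. Ephx1, a microsomal epoxide hydrolase gene, gave 3.28 ± 0.10 and the carbonyl reductase gene Cbr3 gave 2.84 ± 0.09, while the ferritin genes Fth1 and Ftl1 gave -2.41 ± 0.07 and -1.22 ± 0.10. Of 16 tested oxidant sources, 9 were higher and 6 lower, beside 43.1% and 43.7% of all genes. The monoamine oxidase gene Maoa gave 1.71 ± 0.05, Ero1l -1.09 ± 0.07 and the neuronal nitric oxide synthase gene Nos1 -3.24 ± 0.09. The genes named from each list are among those with the smallest p in each direction.

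**Figure D3:**
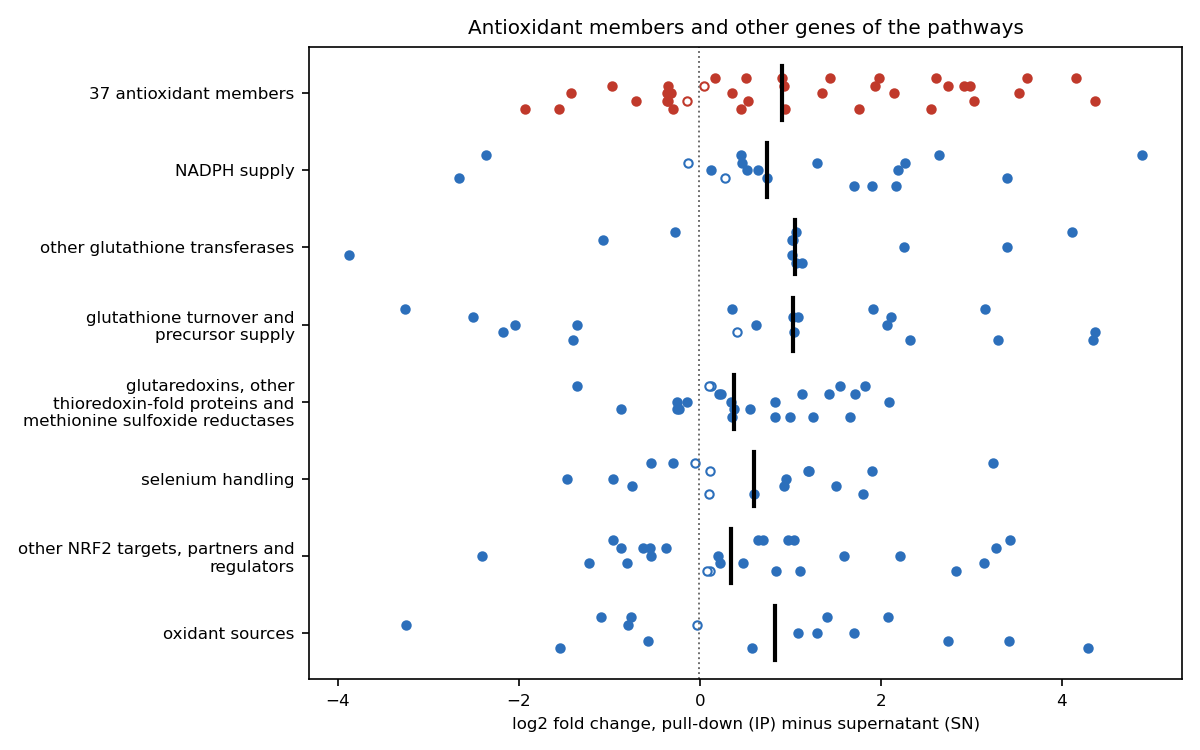
Log2 fold change between pull-down and supernatant (x axis) for the 37 antioxidant genes (red) and the tested genes of 7 connected lists (blue); each point is 1 gene, open points did not pass, bars are list medians and the dotted line is the median of all genes at -0.01. The members' median lies at 0.91, and all 7 list medians lie to the right of the dotted line.

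None of the 37 genes passed the test between treatments, in either fraction, and none of the pathway genes did. The 95% intervals are given gene by gene, are not adjusted for the number of genes, and reflect only the spread of these samples. For the diet in the pull-down (Sham-HFD minus Sham-Chow), all 37 intervals lay within 2-fold either way and 35 within 1.5-fold. For orchiectomy on the high-fat diet in the pull-down (GDX-HFD minus Sham-HFD), 36 lay within 2-fold and 31 within 1.5-fold, with Gpx4 beyond 2-fold. For both together in the pull-down (GDX-HFD minus Sham-Chow), the same counts were 36 and 31, with Hmox1 beyond. The 37 genes summed to 5614 to 6839 CPM in GDX-HFD pull-downs, 6216 to 7542 CPM in Sham-HFD pull-downs and 6887 to 7882 CPM in Sham-Chow pull-downs. The GDX-HFD and Sham-HFD ranges overlap, and all GDX-HFD sums lie below all Sham-Chow sums, which is given without a test because the genes were chosen as a list. Gene by gene, 0 of the 37 members were separated between GDX-HFD and Sham-Chow pull-downs, beside 29 of 14026 genes. Abundant genes weigh most in the sum: over all pull-downs Gstm1 averaged 1588, Prdx6 1126, Prdx1 772 and Sod1 647 CPM of a mean sum of 6984 CPM.

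**Figure D4:**
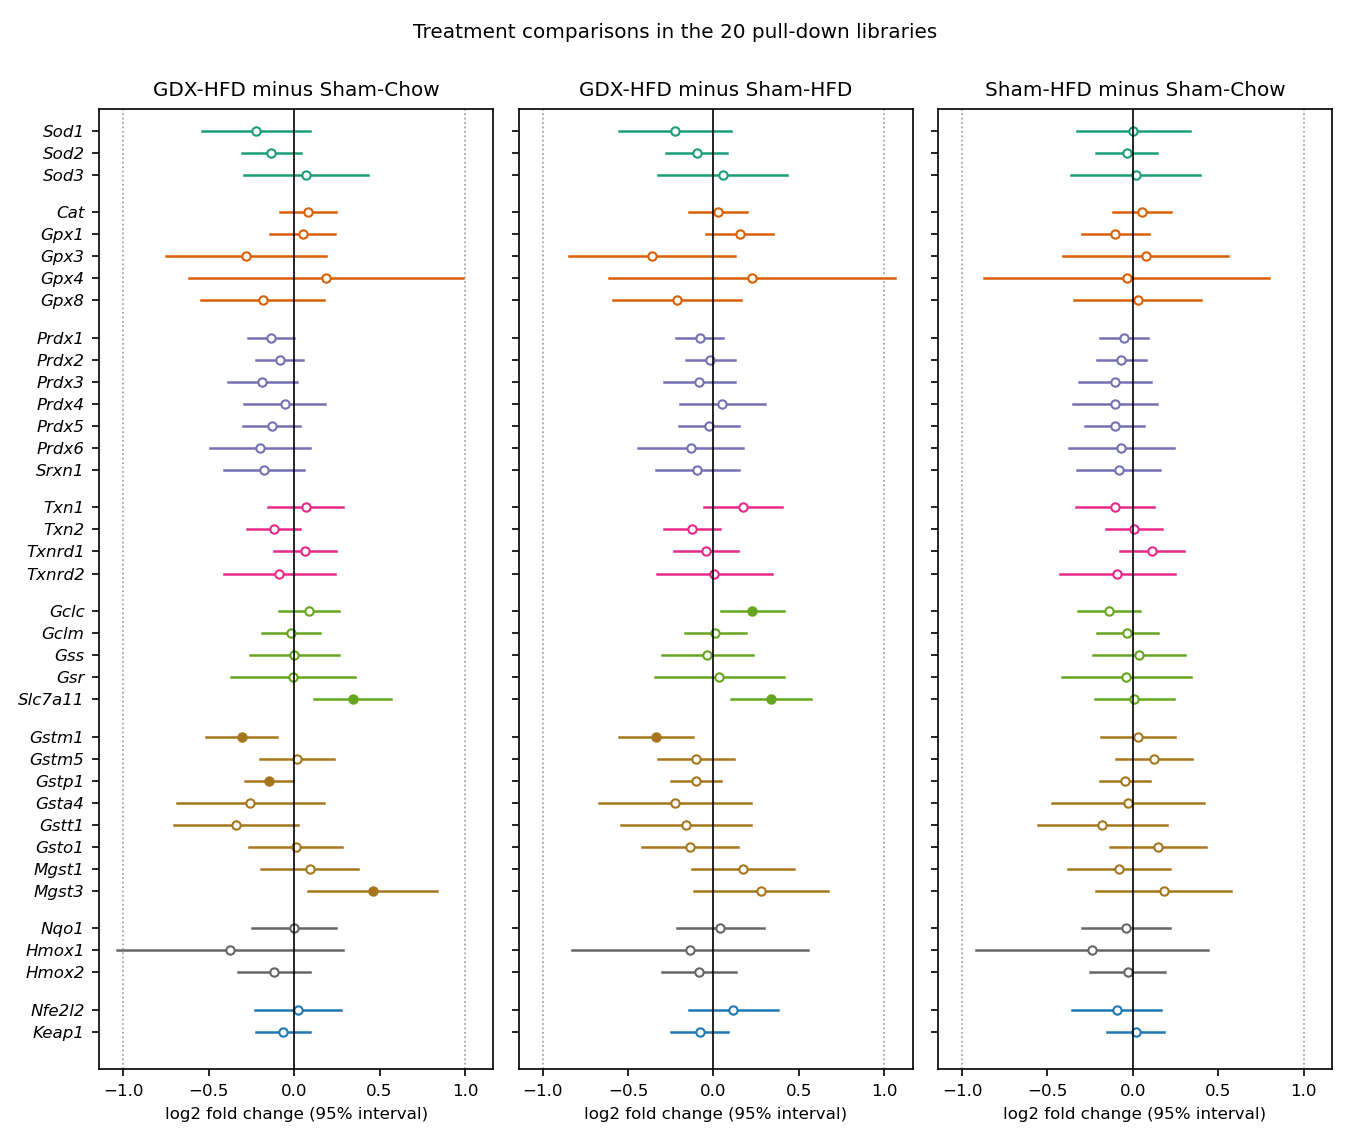
Log2 fold change with 95% interval (x axis) of the 37 genes (y axis) in the pull-down for the 3 treatment comparisons; filled points have an unadjusted p under 0.05, dotted lines mark 2-fold, and no gene passed after adjustment. Slc7a11 and Gstm1 are filled in both comparisons with GDX-HFD, at 0.33 and -0.34 against Sham-HFD, and these 2 comparisons share the GDX-HFD libraries.

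Orchiectomy in the pull-down called no member and no gene with edgeR (0% of 14059 genes), and 3 members had an unadjusted p under 0.05, beside 6.53% of all genes; DESeq2 called 11 genes and limma voom 0, and neither called a member. Slc7a11, the cystine importer, had 227.1 to 353.6 CPM in GDX-HFD pull-downs (median 287), 217.2 to 242.4 CPM in Sham-HFD pull-downs (median 227.9) and 178.6 to 290.1 CPM in Sham-Chow pull-downs (median 217.2). In 5 of the 7 GDX-HFD pull-downs the level was above every Sham-HFD pull-down, but the ranges overlapped, with a log2 fold change of 0.33 ± 0.11, an unadjusted p of 0.0072 and an adjusted p of 0.741. Gstm1 had 1166 to 1573 CPM in GDX-HFD pull-downs (median 1294), 1513 to 1975 CPM in Sham-HFD pull-downs (median 1763) and 1395 to 2179.7 CPM in Sham-Chow pull-downs (median 1510.2). Its log2 fold change of -0.34 ± 0.10 had an unadjusted p of 0.00393 and an adjusted p of 0.741. Gclc had 62.6 to 93.3 CPM in GDX-HFD pull-downs (median 71.5) and 59.0 to 72.3 CPM in Sham-HFD pull-downs (median 61.6), with 0.23 ± 0.09 and an adjusted p of 0.741, and with 0.16 ± 0.07 without GDX-HFD pull-down 10. Gpx1 gave 0.15, Txn2 gave -0.13 and Gpx3 gave -0.36, all with an unadjusted p above 0.05. Nfe2l2 gave 0.12 ± 0.13, Keap1 -0.08 ± 0.08, Gclm 0.01 ± 0.09, Nqo1 0.04 ± 0.12 and Hmox1, at its low counts, -0.14 ± 0.33.

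Other measures differed between the same pull-downs. The Gm42418 share was 2.40% to 16.9% in GDX-HFD (median 6.58%), 1.60% to 18.2% in Sham-HFD (median 3.19%) and 1.07% to 13.3% in Sham-Chow (median 2.01%). With that share as a covariate, orchiectomy gave 0.40 ± 0.09 for Slc7a11 (adjusted p = 0.176) and -0.37 ± 0.10 for Gstm1 (adjusted p = 0.479). Without the 4 Gm42418-rich pull-downs Slc7a11 gave 0.38 ± 0.11, Gstm1 -0.38 ± 0.10 and Gclc 0.19 ± 0.10. The 10 endothelial markers summed to 377 to 1951 CPM in GDX-HFD (median 513), 275 to 1218 CPM in Sham-HFD (median 346) and 236 to 953 CPM in Sham-Chow (median 320.04); none of the 10 was at 0, all 10 lay above 0 for orchiectomy with a median log2 fold change of 0.80, and none passed after adjustment. The astrocyte markers summed to 37288 to 51370 CPM in GDX-HFD, 47651 to 57421 CPM in Sham-HFD and 46280 to 59914 CPM in Sham-Chow, and 11 of the 14 lay below 0 for orchiectomy. The 10 oligodendrocyte markers summed to 820 to 1374 CPM in GDX-HFD, 848 to 1112 CPM in Sham-HFD and 785 to 1376 CPM in Sham-Chow, and 9 of them lay above 0 for orchiectomy, with a median of 0.26. The 8 mural markers summed to 107 to 403 CPM in GDX-HFD, 135 to 419 CPM in Sham-HFD and 101 to 248 CPM in Sham-Chow, and 6 of them lay above 0, with a median of 0.089. The 8 fibroblast and meningeal markers had their lowest median sum in GDX-HFD, at 3598 CPM (1985 to 6511). The medians were 5772 CPM in Sham-HFD (2408 to 7330) and 5682 CPM in Sham-Chow (3252 to 12361). The part of these other cells and of astrocyte content in the values of Slc7a11, Gstm1 and Gclc was not tested.

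Orchiectomy and diet together, GDX-HFD against Sham-Chow in the pull-down, called no member and 0.0142% of all genes, and 4 members had an unadjusted p under 0.05, beside 11.1% of all genes. Slc7a11 gave 0.34 ± 0.11 (adjusted p = 0.369), Gstm1 gave -0.31 ± 0.10 (adjusted p = 0.369) and Gstp1 gave -0.15 ± 0.07 (adjusted p = 0.437). Mgst3 had 5.20 to 10.6 CPM in GDX-HFD pull-downs (median 6.42), 4.36 to 8.203 CPM in Sham-HFD pull-downs (median 6.40) and 4.04 to 6.93 CPM in Sham-Chow pull-downs (median 5.54). Its log2 fold change against Sham-Chow was 0.46 ± 0.18 (adjusted p = 0.410452), and 0.33 ± 0.20 without the Gm42418-rich pull-downs. Prdx1 gave -0.13 and Cat 0.08, both with an unadjusted p above 0.05, and Cat changed sign without the Gm42418-rich pull-downs. In this comparison all 10 endothelial markers lay above 0 with a median of 1.11, and 8 of them had an unadjusted p under 0.05. Of the 10 oligodendrocyte markers 9 lay above 0 with a median of 0.39, and of the 8 mural markers 7 with a median of 0.50. None of these passed after adjustment, and their part in the members' values was not tested. This comparison shares its libraries with the other pair of pull-down comparisons.

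**Figure D5:**
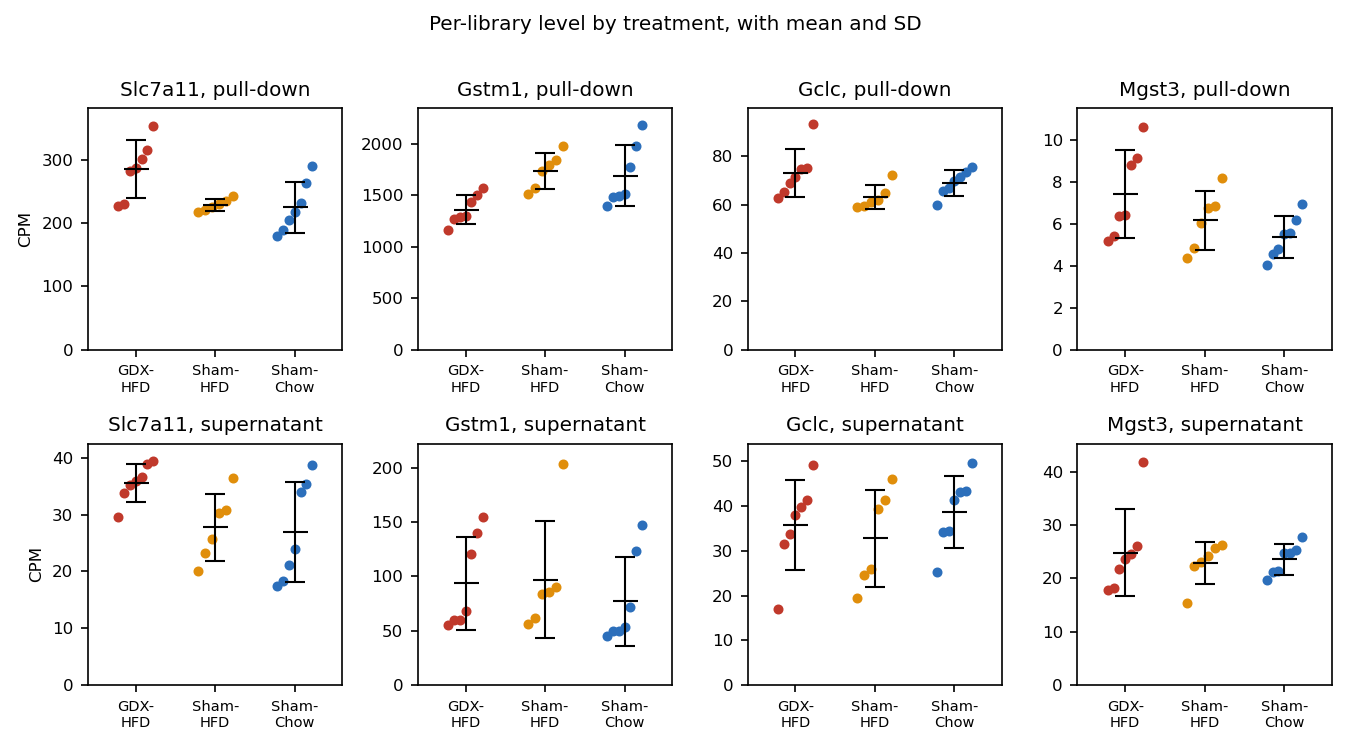
CPM (y axis, from 0) of Slc7a11, Gstm1, Gclc and Mgst3 per library in GDX-HFD, Sham-HFD and Sham-Chow, pull-down above and supernatant below; points are libraries, the bar is the mean and the whisker the SD. In the pull-down Slc7a11 averages 285 CPM in GDX-HFD, 228 CPM in Sham-HFD and 225 CPM in Sham-Chow, with overlapping points in every panel.

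The diet alone, Sham-HFD against Sham-Chow in the pull-down, called 0% of all genes and no member by edgeR, DESeq2 or limma voom. No member had an unadjusted p under 0.05, beside 1.71% of all genes. The 3 smallest p in each direction belonged to Txnrd1 (0.11), Gstm5 (0.12) and Gsto1 (0.15), and to Gclc (-0.14), Prdx5 (-0.11) and Gpx1 (-0.10), given as log2 fold changes. Gsto1 gave 0.045 and Gpx1 -0.041 without Sham-Chow pull-down 12, Txnrd1 gave 0.054 without Sham-Chow pull-down 23, and Prdx5 gave -0.055 without Sham-HFD pull-down 1. Nfe2l2 gave -0.09 ± 0.13 and Keap1 0.02 ± 0.08. Slc7a11 gave 0.01 ± 0.11 and Gclm -0.03 ± 0.09. Nqo1 gave -0.04 ± 0.12 and Hmox1 -0.24 ± 0.33. The 6 peroxiredoxins and Srxn1 had values between -0.11 and -0.05, all 7 below 0 and none past the test, where 47.2% of all genes lay above 0. These 7 values come from the same libraries and are not independent, and the signs of the other roles are not given here.

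In the supernatant, which holds messages of astrocytes and of all other hypothalamic cells, 36 members were tested. The 14 astrocyte markers summed there to 1662 to 4824 CPM in GDX-HFD (median 2309), 1472 to 4619 CPM in Sham-HFD (median 1983) and 1233 to 3987 CPM in Sham-Chow (median 1574). Against Sham-HFD, GDX-HFD called 0% of all genes and no member. None had an unadjusted p under 0.05, beside 3% of all genes. Slc7a11 had 29.6 to 39.4 CPM in GDX-HFD supernatants (median 35.9), 20.1 to 36.5 CPM in Sham-HFD supernatants (median 28.0) and 17.4 to 38.7 CPM in Sham-Chow supernatants (median 24.0). Its log2 fold change for orchiectomy was 0.36 ± 0.18 (unadjusted p = 0.0554). In the same comparison all 14 astrocyte markers lay above 0, with a median of 0.34 and none past the test, and their part in the values of Slc7a11 and the other members was not tested. Nfe2l2 gave 0.38 ± 0.26, and 0.23 without Sham-HFD supernatant 20. Gclm gave 0.27 ± 0.16 and Txnrd2 -0.22. Prdx4 gave -0.19, and -0.093 without GDX-HFD supernatant 2, and Prdx5 gave -0.15, and -0.079 without Sham-HFD supernatant 20.

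GDX-HFD against Sham-Chow in the supernatant also called 0% of all genes and no member, and 1 member, Slc7a11, had an unadjusted p under 0.05, beside 2.26% of all genes. It gave 0.39 ± 0.17 (unadjusted p = 0.0319, adjusted p = 0.99987). All 14 astrocyte markers lay above 0 here too, between 0.36 and 0.82 with a median of 0.57 and none past the test. Gstt1 gave 0.26, Gsta4 0.17, Prdx4 -0.16, Txnrd2 -0.13 and Txn1 -0.10. For the diet in the supernatant, 0% of all genes and no member were called, and no member had an unadjusted p under 0.05, beside 1.41% of all genes. Prdx5 gave 0.18, Prdx2 0.13, Gsto1 0.16, Gclm -0.27, Gclc -0.25 and Txnrd1 -0.21. The 6 peroxiredoxins and Srxn1 had values between 0.015 and 0.28, all 7 above 0 and none past the test, where 49.7% of all genes lay above 0. Here too the 7 values share their libraries and are not independent, and the other roles' signs are not given. Intervals were wider here than in the pull-down: 26 of 36 lay within 1.5-fold for the diet, 28 for orchiectomy and 25 for both together. Those of Mgst1 in all 3 comparisons and of Gstm1 for the diet reached beyond 2-fold.

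Whether a treatment acted differently in the 2 fractions was tested as an interaction, the effect in the pull-down minus that in the supernatant. The diet interaction called 0% of all genes and the orchiectomy interaction 0.0064%, with no member in either; no member had an unadjusted p under 0.05, beside 2.55% of all genes for the diet and 4.43% for orchiectomy. The members with the smallest p were Prdx5 (-0.28 ± 0.15), Prdx2 (-0.19 ± 0.12), Gstt1 (-0.37), Txnrd1 (0.33), Gclm (0.23) and Mgst3 (0.24) for the diet. For orchiectomy they were Hmox1 (-1.26 ± 0.68), Gsta4 (-0.39 ± 0.24), Gclm (-0.27), Gpx1 (0.22), Prdx4 (0.23) and Txn1 (0.21). The intervals of 16 and 15 of the 37 genes lay within 1.5-fold.

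The members differed in how far replicates spread. Within the pull-down groups the median coefficient of variation over the 37 genes was 15.8% in GDX-HFD, 10.2% in Sham-HFD and 15.1% in Sham-Chow, and within the supernatant groups it was 23.2% in GDX-HFD, 19.6% in Sham-HFD and 16.3% in Sham-Chow. Txnrd1 had the lowest value, 3.27% in Sham-HFD pull-downs. Hmox1 had the highest in all 3 supernatant groups, between 64.7% and 106% at its low counts, and Gpx4 reached 94.9% in GDX-HFD pull-downs.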

How the data were processed

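Messenger RNA was measured in 20 pull-down and 20 supernatant libraries with the QuantSeq 3' FWD kit after oligo-dT bead isolation, per the labels' protocols. Such a kit gives tags near the 3' end, so levels are not compared between genes. Per the submitters' processing notes, Trim Galore 0.6.4, Salmon 1.9.0 and the build GRCm38 were used; no source used here gives the annotation, the strand setting or how transcripts were summed to genes. Estimated counts, 1 row a gene, fill the first table the authors deposited. A second deposited table, named TPM, holds a signal equal to those counts times 1 factor per library for 25089 of 26783 shared symbols (within 0.01 counts), and served for an alternative only.

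Counts were rounded and tested with edgeR 4.0.16 in R 4.3.3 (TMM, filterByExpr with minimum count 10, robust quasi-likelihood fit, Benjamini-Hochberg over all genes tested). The 20 libraries of each fraction were fitted apart with 3 group means, and all 40 together with 6 for the fraction comparison and interactions. Standard errors came from the F statistic; intervals are 95%. CPM are counts scaled to a common TMM-corrected library total. DESeq2 1.42.0 and limma 3.58.1 served as alternatives, besides other scalings, no filter, left-out libraries, a Gm42418 covariate and a replicate block. The fits were tested on simulated data. Precision is set by the spread between libraries, since PCR copies cannot be told from molecules. Gene positions come from GENCODE M21 (GRCm38); promoters are RefSeq's, GRCm38.p6. The members, gene lists and tests were chosen with earlier results of these data known. Every member is named in the fraction comparison. In each other comparison the named members are those past the threshold or the 3 with the smallest p per direction, and in the pull-down also Nfe2l2, Keap1, Slc7a11, Gclc, Gclm, Nqo1 and Hmox1 for diet and for orchiectomy. Of each pathway list the 2 genes with the smallest p per direction are named, except for a few results that are not reported here. Marker lists of astrocytes, neurons and other cell types are given beside the members.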

Additional observations from a re-analysis of the deposited data

Results flagged for a closer look

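In 222 groups of 6 or 7 libraries, 1 for each member in each group, the highest or lowest library was compared with the rest. The cutoff would set apart about 1 in 20 groups of normal, independent values, and 23 stood apart here. The groups share the same 40 libraries, so the 23 cannot be set against that rate. No explanation was tested for any of them. GDX-HFD supernatant 2 held 7: Sod2 at 253 CPM (others of its group 143 to 173), Gpx3 at 81.8 (36.3 to 48.5), Prdx3 at 46.4 (15.4 to 24.0), Srxn1 at 176 (58.7 to 89.8), Mgst3 at 41.8 (17.9 to 26.2) and Hmox1 at 1.41 (0 to 0.451) were its group's highest, and Keap1 at 50.4 (92.2 to 117) was the lowest.

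Sham-Chow pull-down 12 held 5. Gpx4 at 39.2 CPM, Gstt1 at 112, Mgst1 at 165 and Nfe2l2 at 253 were the highest of their group, and Gsto1 at 10.8 was the lowest. In GDX-HFD pull-down 10, Gpx4 at 80.6 and Gclc at 93.3 CPM were the highest. In Sham-HFD pull-down 1, Sod3 at 31.6 CPM was the highest and Prdx6 at 774 the lowest, and in the supernatant of the same number Prdx6 at 183 and Gstm1 at 203 CPM were the highest. In Sham-HFD supernatant 20, Mgst3 at 15.4 and Nfe2l2 at 4.98 CPM were the lowest. Single values stood apart in GDX-HFD pull-down 11 (Sod3 highest at 37.8 CPM), Sham-Chow pull-down 8 (Prdx6 lowest at 851 CPM) and Sham-HFD supernatant 16 (Prdx1 lowest at 113 CPM).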

How the results depend on the processing

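Between the fractions, 21 to 24 members were higher and 11 or 12 lower over the alternatives; the lowest count, 21, came from limma on the second table, where Gpx8 and Hmox1 were not tested and Gpx4 was not called. The median of all genes was -0.18 with no filter on low counts. Txnrd2, not called, gave -0.021 with DESeq2's size factors, -0.023 with DESeq2, -0.033 with limma on the second table (an alternative chosen after seeing the data) and -0.068 without the Gm42418-rich libraries. No member was called between treatments under any alternative run, but counts over all genes moved: DESeq2 called 11 for orchiectomy and 12 for orchiectomy plus diet in the pull-down, 3 and 1 in the supernatant, and 4 and 6 for the diet and orchiectomy interactions, against 0, 2, 0, 0, 0 and 1 with edgeR. Without the Gm42418-rich libraries Slc7a11 gave -0.033 for diet and Cat -0.025 for orchiectomy plus diet in the pull-down; the cause was not tested. Leaving out 1 library at a time, some uncalled pull-down values took both signs. For diet the ranges were -0.14 to 0.036 for Nfe2l2, -0.0087 to 0.075 for Keap1, -0.041 to 0.086 for Slc7a11, -0.069 to 0.017 for Gclm and -0.075 to 0.019 for Nqo1. For orchiectomy they were -0.025 to 0.049 for Gclm and -0.054 to 0.10 for Nqo1. The labels do not say whether same-numbered pull-downs and supernatants pair, and the main fits treat them as unpaired. Number 6 had the highest red blood cell marker sum in both fractions, 6737 CPM in the pull-down and 14732.5 CPM in the supernatant. The correlation of their deviations was -0.0688 to 0.153 over 20 pairs and over 0.1 in 5. In 10 pairs the pull-down correlated best with the supernatant of its own number, among the 6 or 7 supernatants of its treatment. How many would do so by chance was not computed. With a replicate block 24 members were higher and 11 lower between the fractions. The planned count test on reads recovered from the second table was not run, since only 89.4% of its values came out whole. Low counts limit Hmox1, and shared 3' sequence limits Gpx4 and Gstp1.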

Other observations

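The 4 pull-downs rich in Gm42418 lay below the other 16 for 3 of the 37 genes, Prdx6, Gpx8 (6.83 to 8.88 against 9.19 to 15.8 CPM) and Gsta4 (43.6 to 59.0 against 68.8 to 114 CPM), and above them for 0; of all 15629 genes, 505 lay below and 491 above. In 6 supernatants (3 GDX-HFD, 1 Sham-HFD and 2 Sham-Chow) the astrocyte markers summed to 3155 to 4824 CPM, against at most 2379 CPM in the other 14. Prdx6 had 119 to 183 CPM and Gstm1 120 to 203 CPM in those 6, against 54.6 to 98.4 and 45.4 to 90.3 CPM in the other 14; of all 15629 genes, 178 lay above in those 6 and 0 below. The 6 supernatants are numbers 6, 11 and 22 of GDX-HFD, 1 of Sham-HFD, and 8 and 23 of Sham-Chow. The 4 Gm42418-rich pull-downs are numbers 1, 8, 11 and 22, all among those numbers. In these 4 pull-downs the endothelial markers summed to 953 to 1951 CPM. Pull-down 6 held 1579 CPM of them, and every other pull-down at most 519 CPM. All these libraries were set apart by measured values and are not groups of the study, so no test was made.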
